A study of Mus musculus with 4 samples.

Results

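The 10 genes described here encode bone morphogenetic protein (BMP) and growth differentiation factor (GDF) ligands (Gdf5, Gdf6, Bmp2, Bmp4 and Bmp7), type I receptors (Bmpr1a and Bmpr1b) and secreted antagonists (Nog, Chrd and Grem1). They are 10 of the 21757 protein-coding genes of the annotation, and were chosen by name as control genes of chondrocytes, limbs and joints. H3K27ac, a histone acetylation found at active promoters and enhancers, was mapped by ChIP-seq in 4 sorted cell populations, and each population gave 1 peak list. All peaks within a gene's body or within 200 kb of its start site were taken. They made up 181 of the 62558 regions of the 4 lists, and 114 of the 40823 distal regions.

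The populations came from mouse fetuses at stage E14.5, whose limbs and trunk were each sorted into EGFP+ and EGFP- cells. All fetuses were homozygous for Col2a1-EGFP, a cassette with a minimal beta-globin promoter and EGFP that sits just upstream of Col2a1, the gene of the main cartilage collagen. They were derived from a single line of G4 embryonic stem cells by tetraploid aggregation, so every population shared 1 genotype. Limb tissue held the stylopods, zeugopods and autopods of fore and hind limbs, and trunk tissue ran from neck to tail without the internal organs. EGFP+ cells stood for chondrocytes, which use Col2a1 from early to prehypertrophic stages, and EGFP- cells for the mixed remainder. There was 1 library per population, so no test between populations was made and a difference carries no replicate error.

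BMPs and GDFs are secreted dimers that bind complexes of type I and type II receptors, which phosphorylate SMAD1, SMAD5 and SMAD9 and so change transcription. In the fetal skeleton they drive mesenchymal cells to condense and become cartilage, and they later steer growth plates and joints. Noggin, chordin and gremlin bind the ligands outside the cell and keep them from their receptors, which lets joints and other spaces between cartilages form.

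The lists held 40899 peak intervals in limb EGFP+, 34360 in limb EGFP-, 36231 in trunk EGFP+ and 30716 in trunk EGFP- cells. The reads at a summit, which follow from its fold and -log10 p, had a median of 24 to 26 per list and a minimum of 7 or 8. A missing peak therefore says that no peak was called at this depth, not that acetylation was absent, and in sorted bulk cells fewer acetylated cells and less signal per cell cannot be told apart. All 9 chondrocyte markers had a promoter interval in both EGFP+ lists, against 4 of 9 in each EGFP- list, where Acan, Matn1, Col9a1, Col11a2 and Fgfr3 had none. The EGFP- lists held no promoter interval at any of 5 muscle, 4 epithelial, 3 endothelial and 3 blood markers, so those lineages were not visible in them, and Myog was the 1 muscle marker with an interval, in limb EGFP+ cells. Connective tissue markers (3) had an interval at 2 in limb EGFP+, 2 in limb EGFP-, 1 in trunk EGFP+ and 2 in trunk EGFP- cells. Both EGFP- lists had Col3a1 and Dcn. Neural markers (3) had 1 (Sox10), 0, 0 and 1 (Tubb3) in the same order. Of 3 tendon and 5 joint and perichondrium markers, limb EGFP+ cells had an interval at 1 and 3, limb EGFP- at 1 and 3, trunk EGFP+ at 2 and 2, and trunk EGFP- at 1 and 2. Of 3 limb markers, limb EGFP+ had 3, limb EGFP- 2, trunk EGFP+ 1 and trunk EGFP- 0, and of 4 trunk markers 2, 0, 3 and 0 in the same order. Limb and trunk libraries carry different lane labels, so tissue and sequencing lane cannot be told apart. In the trunk EGFP- list the peak names carry a replicate 2 mark where the label of the sample has 1, and the label was followed.

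An interval was a promoter interval where it overlapped the 2 kb before to the 500 bp after a start site of the gene, and distal where it met no such window of any protein-coding gene. Overlapping intervals of the 4 lists were merged into regions. A region is called EGFP+-only where it held a peak of a limb or trunk EGFP+ list and of neither EGFP- list, EGFP--only in the reverse case, and shared otherwise. Strength is given as the percentile of the interval's -log10 p within its own list, in which the strongest interval has 100, and no value of one list was divided by that of another.

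Distal acetylation around the 10 genes was called mostly in EGFP+ cells. Summed over the genes there were 75 distal intervals in limb EGFP+, 30 in limb EGFP-, 55 in trunk EGFP+ and 21 in trunk EGFP- cells. The EGFP+ lists were also longer, and the 10 genes held 0.348% of all distal intervals of the limb EGFP+ list (exact Clopper-Pearson 95% interval 0.274 to 0.436%) and 0.18% of the limb EGFP- list (0.1215 to 0.257%). In the trunk the shares were 0.304% (0.229 to 0.395%) in EGFP+ and 0.158% (0.0981 to 0.242%) in EGFP- cells. These limits cover counting error only and treat intervals as independent, which neighbouring intervals of a gene are not. The limits of the limb lists did not overlap and those of the trunk lists did, which is not a test between populations. The median gene of the genome had 3 distal intervals in limb EGFP+, 2 in limb EGFP-, 3 in trunk EGFP+ and 2 in trunk EGFP- cells, against 6, 2.5, 6.5 and 2 for the 10 genes.

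Of the 114 distal regions, 74 (64.9%, exact 95% interval 55.4 to 73.6%) were EGFP+-only, and 47.7% of all distal regions of the genome were. The 21 EGFP--only regions made up 18.4% (11.8 to 26.8%) beside 32.3% of the genome's, and 19 were shared. More EGFP+-only than EGFP--only regions were found at 8 of the 10 genes, whereas 47.8% of all genes have that order. Bmp4 had the reverse order and Gdf6 equal numbers. The share over all genes includes genes without distal regions, which can only have equal numbers. The median gene had 6 distal regions, against 10.5 for the 10 genes, so the 2 shares are not matched for region number. Neighbouring regions of a gene are not independent, and with 1 library per population the excess has no replicate check.

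Of the 74 EGFP+-only regions, 14 (18.9%) had a peak in both the limb and the trunk EGFP+ lists, near the 22.7% of all EGFP+-only distal regions of the genome. They are 12.3% of the 114 regions, against 10.8% of the genome's distal regions. A further 38 had a limb peak alone and 22 a trunk peak alone. The 14 were found at Gdf5 (4), Bmp7 (3), Nog (3), Bmp2 (2) and Bmpr1b (2). They had a median width of 360 bp and a median best percentile of 33.2, beside 252 bp and 21.8 for the 60 seen in 1 tissue. Over the genome these medians are 526 bp and 46.5 in both tissues and 254 bp and 20 in 1 tissue. Peaks in all 4 lists were found at 5 distal regions, namely 2 of Bmpr1a, 2 of Chrd and 1 of Gdf6 (4.39% of the 114, against 8.12% over the genome).

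Most EGFP+-only regions of these genes ranked low, as those of the genome did, with a median best percentile of 25.3 beside 24.9. Of the 74, 6 (8.11%) reached the upper 50% of a list, against 13.8% of the genome's EGFP+-only distal regions, and none of the 21 EGFP--only regions did, against 6.99%. Of the shared regions 9 of 19 did (47.4% against 60.5%). The summits of the EGFP+-only regions held 9 to 45 reads with a median of 17. By position, 35 of the 74 lay in introns, 8 overlapped exons and 31 were intergenic, and 20 lay in the body of the gene itself. The member gene had the nearest start site for 44 of the 74, so 30 could as well be assigned to a neighbour by distance.

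**Figure D1:**
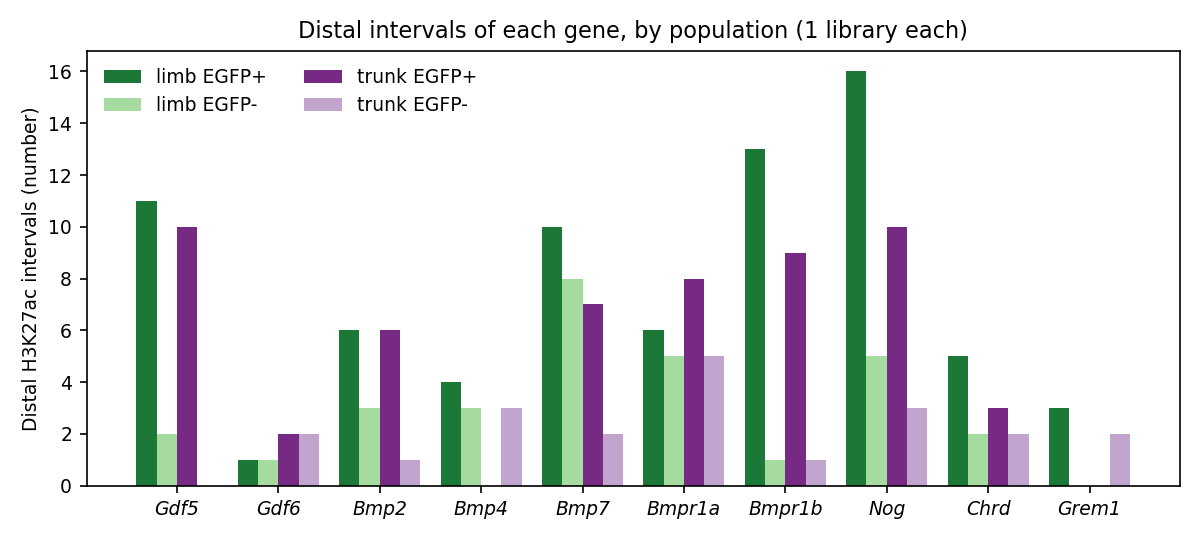
Number of distal H3K27ac intervals (vertical axis) of each of the 10 genes, with 1 bar per sorted population and 1 library per bar. The EGFP+ bars stand highest at Nog (16 in the limb, 10 in the trunk), Bmpr1b (13 and 9) and Gdf5 (11 and 10), and Bmp4 and Grem1 have no trunk EGFP+ bar.

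**Figure D2:**
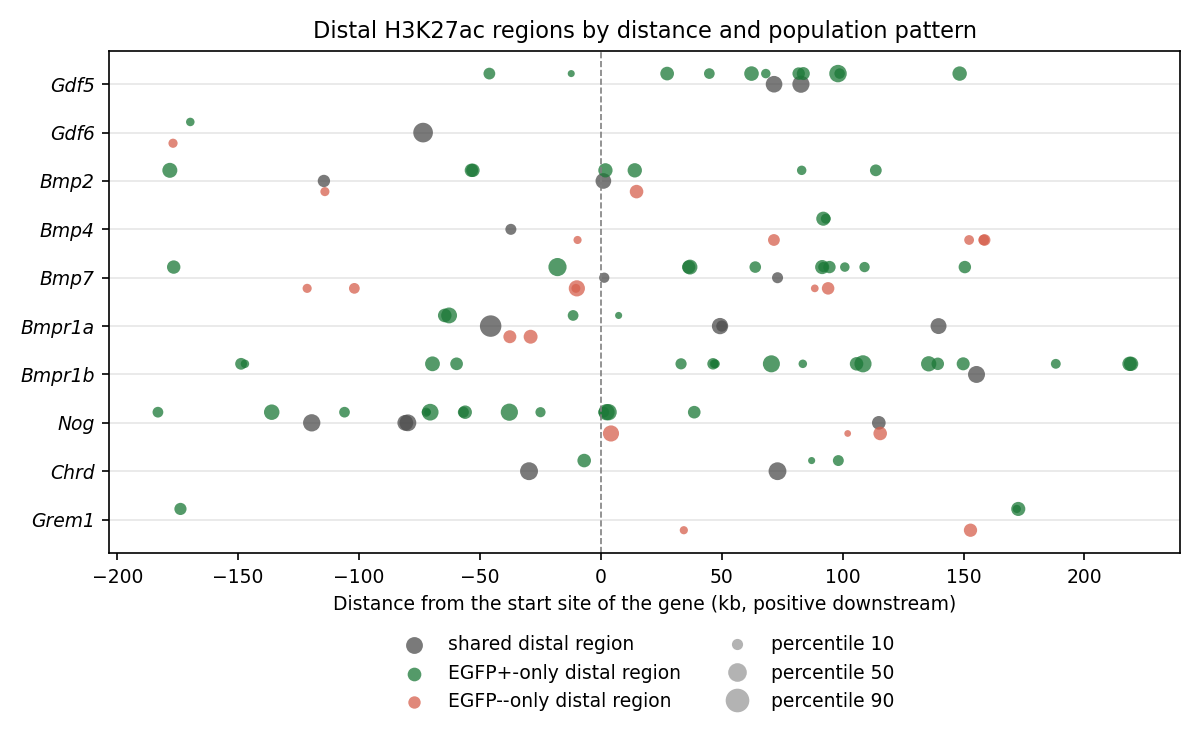
Distal regions of the 10 genes by distance from the gene's start site (horizontal axis, kb, positive downstream), coloured by the lists that hold a peak, with dot area rising with the best within-list percentile. EGFP+-only regions (74) outnumber EGFP--only regions (21), and the shared regions include the largest dots, at Bmpr1a and Gdf6.

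Promoter intervals were found at 8 of the 10 genes in limb EGFP+ cells, 6 in limb EGFP-, 7 in trunk EGFP+ and 5 in trunk EGFP- cells. Among all protein-coding genes the shares were 55.4%, 52.5%, 53.7% and 53.7%. These counts use all start sites of a gene, and with the 5' end of the gene record alone they were 6, 5, 6 and 3 for the 10 genes. Bmp4, Bmpr1a and Bmpr1b had a promoter interval in all 4 lists, as 48.4% of all genes did. Bmp7 alone of the 10 had one in both EGFP+ lists and in neither EGFP- list. A looser pattern, promoter intervals in either or both EGFP+ lists and in neither EGFP- list, was found at 3.9% of all genes. Bmp7 was also the only gene of the 10 with that looser pattern. Gdf6 and Grem1 had none in any list, as did 40.2% of all genes.

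**Figure D3:**
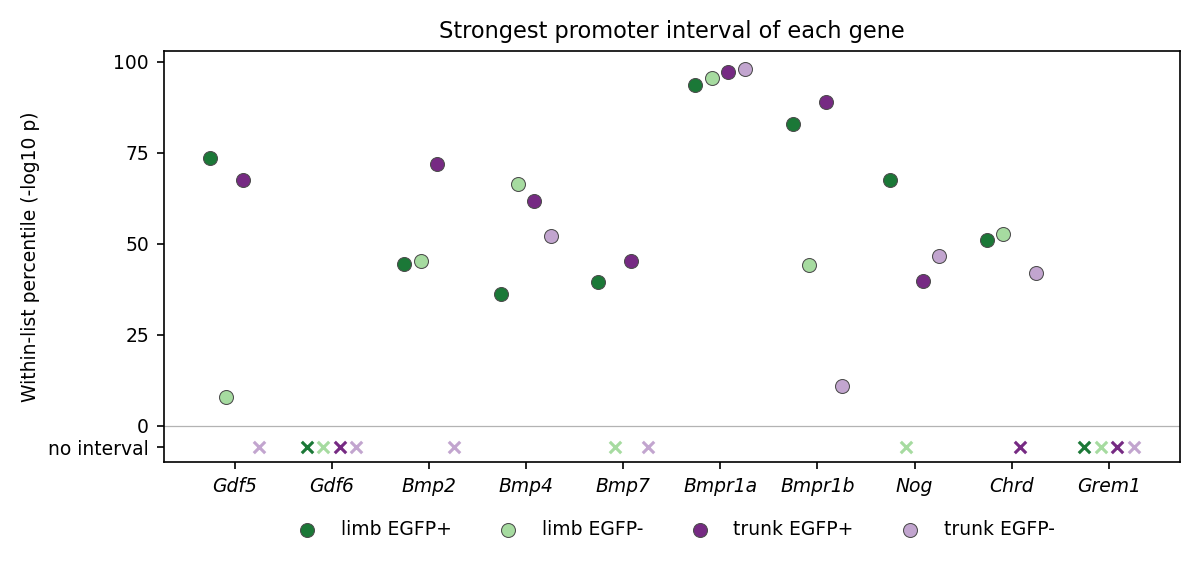
Within-list percentile of -log10 p of the strongest promoter interval (vertical axis) of each gene in the 4 populations, with crosses where no promoter interval was called. Bmpr1a lies at 93.5 to 98.0 in all 4 lists, Bmpr1b and Gdf5 stand far higher in EGFP+ than in EGFP- cells, and Bmp7 has points for EGFP+ cells alone.

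Gdf5 encodes a ligand of the joint interzone, the cell layer in which a joint forms. Its promoter carried an interval of 1733 bp in limb EGFP+ cells, which was wider than 99.4% of that list and stood at percentile 73.5 (-log10 p 21.7, 57 summit reads). In trunk EGFP+ cells the interval was 796 bp wide at percentile 67.4 (-log10 p 15.1, 36 reads), in limb EGFP- cells 248 bp wide at percentile 7.97 (-log10 p 4.69, 15 reads), and in trunk EGFP- cells none was called. Both EGFP+ promoter peaks were thus in the upper part of their lists, and the limb EGFP- peak was among the weakest of its own. A second promoter region, chr2:155787601-155787895, lay just upstream of the start site and had a peak in limb EGFP+ cells alone (percentile 60.9).

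The distal counts of Gdf5 were 11 in limb EGFP+, 2 in limb EGFP-, 10 in trunk EGFP+ and 0 in trunk EGFP- cells. Of 13 distal regions 11 were EGFP+-only and 2 shared, and the count of 0 EGFP--only regions allows a share of up to 24.7% (exact 95% interval). Fewer EGFP+-only regions were found at 93.6% of genes. None of the 13 had Gdf5 as the nearest start site, and 17 other genes have a start site in the window. Within these peak lists, assignment of the regions to Gdf5 therefore rests on the window alone. The paper predicts chondrogenic enhancers at the Gdf5 locus, some with in vivo activity known from earlier work. Their positions were not compared with these regions. All 13 lay within other genes, with 10 in introns and 3 over exons of Mmp24, Uqcc1 and Cep250, and 10 of the 11 EGFP+-only regions were within 100 kb of the start site. The strongest, chr2:155688781-155689658 over an exon of Uqcc1 and 98.1 kb downstream, stood at percentile 56.8 in limb EGFP+ (878 bp, 30 reads) and 43.0 in trunk EGFP+ cells (221 bp, 18 reads). Another in an intron of Uqcc1, 62.3 kb downstream (chr2:155724508-155725470), stood at 36.2 and 37.3. Both shared regions, 71.6 and 82.7 kb downstream, stood at 50.7 and 54.4 in limb EGFP+ cells but at 26.5 and 1.1 in limb EGFP- cells. Around the limb EGFP+ summit of the region at 62.3 kb, the sequence held a SOX core and 2 SMAD boxes (GRCm39, chr2:155724542-155724841, plus strand). It is shown in place of the exonic region, whose window overlaps an annotated UTR. Capitals here and in the sequences that follow mark exact matches, on either strand, to SOX cores (ACAATGG or ACAAAGG), a FOX site (TGTTTAC), a MEF2 site (CTAAAAATA), a GC-rich SMAD1/5 site (GGCGCC), a SMAD box with flank (CAGACA) or a homeobox core (TAATTA).

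Gdf5 distal, 62.3 kb downstream: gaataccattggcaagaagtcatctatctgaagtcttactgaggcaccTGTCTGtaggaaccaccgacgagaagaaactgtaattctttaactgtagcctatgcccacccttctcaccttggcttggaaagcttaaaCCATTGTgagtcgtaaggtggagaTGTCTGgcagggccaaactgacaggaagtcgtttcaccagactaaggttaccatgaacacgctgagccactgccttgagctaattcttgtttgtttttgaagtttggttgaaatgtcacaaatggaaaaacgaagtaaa

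Gdf6, a close relative of Gdf5 that also acts in joint and skull development, had no promoter interval in any list. It had 3 distal regions in all, and 1 of them had a peak in every list. That region, chr4:9770396-9771265, lies 73.5 kb upstream in intergenic sequence. Its percentile was 63.2 in limb EGFP+, 71.0 in limb EGFP-, 73.7 in trunk EGFP+ and 57.9 in trunk EGFP- cells, with 20 to 29 summit reads. The order of the fractions thus differed between limb and trunk. The other two ranked low, with a trunk EGFP+ peak 169.8 kb upstream (percentile 7.98, 12 reads) and a trunk EGFP- peak 176.9 kb upstream (10.4, 19 reads). The sequence around the limb EGFP+ summit of the shared region held none of the 7 words (chr4:9770833-9771132, plus strand).

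Gdf6 distal, 73.5 kb upstream: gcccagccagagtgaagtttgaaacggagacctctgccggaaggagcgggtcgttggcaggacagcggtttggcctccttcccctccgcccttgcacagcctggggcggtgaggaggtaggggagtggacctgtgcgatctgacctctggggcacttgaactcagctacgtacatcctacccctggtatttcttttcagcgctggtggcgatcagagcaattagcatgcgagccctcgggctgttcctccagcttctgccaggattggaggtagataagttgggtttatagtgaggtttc

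Bmp2 encodes a ligand of prehypertrophic cartilage and of bone formation. Its promoter interval stood at percentile 44.4 in limb EGFP+ (28 reads), 45.2 in limb EGFP- (19 reads) and 71.9 in trunk EGFP+ cells (45 reads), and none was called in trunk EGFP- cells. The promoter therefore separated the fractions in the trunk lists but not in the limb lists. Distal intervals numbered 6 in limb EGFP+, 3 in limb EGFP-, 6 in trunk EGFP+ and 1 in trunk EGFP- cells. No other protein-coding gene has a place in this window, and all 11 distal regions had Bmp2 as the nearest start site. Of the 11, 7 were EGFP+-only, 2 EGFP--only and 2 shared, and no region reached the upper 50% of a list. Acetylation continued from the promoter into the gene, with a shared region 1.04 kb and an EGFP+-only region 1.89 kb downstream of the start site. The latter, chr2:133395690-133396242, stood at 27.2 in limb EGFP+ and 35.5 in trunk EGFP+ cells. At 14.0 kb downstream an EGFP+-only limb peak (percentile 35.9) and, at 14.8 kb, an EGFP--only limb peak (31.3) lay side by side. A single EGFP+-only region far from the gene had peaks in both tissues, chr2:133340412-133340682, 53.5 kb upstream, at 30.5 in limb and 16.5 in trunk EGFP+ cells. It is shown as the region outside UTRs with both EGFP+ peaks, and it held none of the 7 words (chr2:133340360-133340659, plus strand).

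Bmp2 distal, 53.5 kb upstream: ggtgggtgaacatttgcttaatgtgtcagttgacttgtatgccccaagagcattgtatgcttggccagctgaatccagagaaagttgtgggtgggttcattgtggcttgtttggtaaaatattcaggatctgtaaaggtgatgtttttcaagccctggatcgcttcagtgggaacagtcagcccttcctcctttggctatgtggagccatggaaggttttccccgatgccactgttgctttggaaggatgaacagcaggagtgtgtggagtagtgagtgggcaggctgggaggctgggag

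Bmp4, a ligand of limb mesenchyme and early cartilage, was the only gene of the 10 with more EGFP--only than EGFP+-only distal regions. Its promoter was acetylated in all 4 lists, at percentile 36.2 in limb EGFP+ (22 reads), 66.3 in limb EGFP- (38 reads), 61.8 in trunk EGFP+ (35 reads) and 52.1 in trunk EGFP- cells (30 reads). These intervals lie 11.5 kb downstream of the 5' end of the gene record, which has 13 start sites. In the limb the EGFP- promoter interval thus ranked higher than the EGFP+ one, and in the trunk lower. A further promoter region deeper into the gene, chr14:46623046-46623613, had peaks in EGFP+ cells alone, at 41.0 in limb and 37.9 in trunk cells. Distal intervals numbered 4 in limb EGFP+, 3 in limb EGFP-, 0 in trunk EGFP+ and 3 in trunk EGFP- cells. The 4 include the limb interval at 41.0, which itself misses the promoter windows although its merged region reaches one, so the distal regions of Bmp4 held 3 limb EGFP+ peaks. Of 8 distal regions 5 were EGFP--only, 2 EGFP+-only and 1 shared. No EGFP--only region had overlapping peaks in both tissues. A trunk EGFP- peak 158.7 kb downstream and a limb EGFP- peak 158.3 kb downstream lay side by side, and counted as separate regions. The strongest EGFP--only region, 71.6 kb downstream, stood at 21.9 in limb EGFP- cells (10 reads). The strongest EGFP+-only region, 92.0 kb downstream, stood at 34.5 in limb EGFP+ cells (15 reads).

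Bmp7, a ligand of kidney, eye and skeletal development, was the gene of the 10 whose promoter was called in EGFP+ cells alone. The strongest promoter interval stood at percentile 39.6 in limb EGFP+ (24 reads) and 45.3 in trunk EGFP+ cells (30 reads). Neither value reached the upper 50% of its list, so the missing EGFP- peaks stand beside EGFP+ peaks of middling rank. Next to the promoter region, 1.4 kb downstream, the shared distal region chr2:172780846-172781181 held a trunk EGFP- peak at percentile 2.48 (22 reads). Its limb EGFP+ peak stood at 14.8 (20 reads). The sequence before the start site is shown because promoter intervals were called in EGFP+ cells alone, and held none of the 7 words (chr2:172782411-172782710, minus strand).

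Bmp7 promoter: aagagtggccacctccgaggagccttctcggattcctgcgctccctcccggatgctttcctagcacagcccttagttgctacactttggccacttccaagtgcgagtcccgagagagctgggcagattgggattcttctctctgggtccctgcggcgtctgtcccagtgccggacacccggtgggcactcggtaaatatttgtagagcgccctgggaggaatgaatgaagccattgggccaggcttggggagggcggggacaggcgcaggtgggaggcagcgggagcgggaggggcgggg

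Distal intervals of Bmp7 numbered 10 in limb EGFP+, 8 in limb EGFP-, 7 in trunk EGFP+ and 2 in trunk EGFP- cells. Of 19 distal regions 11 were EGFP+-only, 6 EGFP--only and 2 shared, and 87.9% of genes had fewer EGFP--only regions, so the gene was rich in both kinds. The 2 kinds lay close to each other upstream of the gene. At 17.9 kb upstream, chr2:172799884-172800802 was EGFP+-only in both tissues, at percentile 37.2 in limb (18 reads) and 62.0 in trunk EGFP+ cells (26 reads). At 9.93 kb upstream, chr2:172792110-172792573 was EGFP--only in both tissues, at 34.0 in limb (13 reads) and 47.7 in trunk EGFP- cells (18 reads). Downstream of the start site, 36.3 and 36.9 kb away, 2 neighbouring intronic regions were EGFP+-only, and the stronger stood at 39.3 in limb EGFP+ cells. The EGFP+-only region at 17.9 kb held a homeobox core in the window around its limb EGFP+ summit (chr2:172800511-172800810, plus strand).

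Bmp7 distal, 17.9 kb upstream: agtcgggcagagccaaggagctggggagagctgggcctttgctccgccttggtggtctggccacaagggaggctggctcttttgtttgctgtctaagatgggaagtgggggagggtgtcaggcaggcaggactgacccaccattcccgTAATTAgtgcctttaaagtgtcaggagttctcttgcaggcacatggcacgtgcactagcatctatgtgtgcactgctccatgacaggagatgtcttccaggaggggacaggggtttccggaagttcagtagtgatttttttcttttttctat

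Both type I receptors had promoter intervals in all 4 lists, but they differed in how the fractions compared. Bmpr1a, a receptor used by most tissues, had its strongest promoter interval at percentile 93.5 in limb EGFP+, 95.6 in limb EGFP-, 97.1 in trunk EGFP+ and 98.0 in trunk EGFP- cells. The summits held 82 to 92 reads and the widths ran from 630 to 721 bp, so the 4 lists were alike at this promoter. Its distal intervals numbered 6, 5, 8 and 5 in the same order. Of 10 distal regions 4 were EGFP+-only, 2 EGFP--only and 4 shared, and none of the EGFP+-only regions had peaks in both tissues. The strongest distal region of all 10 genes lies 45.6 kb upstream in an intron of Ldb3, chr14:34270414-34271507, and had a peak in every list. It stood at 89.4 in limb EGFP+ (58 reads), 86.4 in limb EGFP- (44 reads), 85.6 in trunk EGFP+ (43 reads) and 74.9 in trunk EGFP- cells (34 reads). Ldb3 encodes a protein of the muscle Z-disc, and which gene this region serves was not tested.

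Bmpr1b, the receptor of cartilage condensations through which Gdf5 acts, differed between the fractions at its promoter. The strongest promoter interval stood at percentile 82.8 in limb EGFP+ (1222 bp, 68 reads) and 88.9 in trunk EGFP+ cells (1376 bp, 52 reads). In limb EGFP- cells it stood at 44.1 (242 bp, 16 reads) and in trunk EGFP- cells at 11.0 (317 bp, 14 reads). A neighbouring trunk EGFP- interval at percentile 60.7 lies outside the promoter windows but inside the same merged region, and counts as distal among intervals. An internal start site 187.5 kb downstream carried a second promoter region, chr3:141687488-141688218, at 69.1 in limb EGFP+, 40.9 in limb EGFP- and 59.2 in trunk EGFP+ cells, with none in trunk EGFP- cells.

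The distal intervals of Bmpr1b numbered 13 in limb EGFP+, 1 in limb EGFP-, 9 in trunk EGFP+ and 1 in trunk EGFP- cells. Of 19 distal regions 18 were EGFP+-only (94.7%, exact 95% interval 74.0 to 99.9%), and 99.2% of genes had fewer EGFP+-only regions. The remaining region was shared, and the count of 0 EGFP--only regions allows a share of up to 17.6%. Of the 18, 14 lay in introns of Bmpr1b itself, whose long body stretches the window to 532.4 kb against 400.0 kb for the other genes. The other four lay upstream, near or in Pdlim5. Of the 18, 2 had peaks in both EGFP+ lists (11.1%, against 22.7% over the genome), 10 in the limb list alone and 6 in the trunk list alone. The strongest limb region, chr3:141766592-141767248 at 108.4 kb downstream, stood at 54.2 (39 reads) and had no trunk peak. The strongest trunk region, chr3:141804588-141805017 at 70.5 kb downstream, stood at 53.6 (24 reads) and had no limb peak. The region with the higher ranks in both tissues, chr3:141656566-141656795 at 218.6 kb downstream, stood at 36.2 in limb and 24.6 in trunk EGFP+ cells. Its window held a MEF2 word (chr3:141656534-141656833, plus strand).

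Bmpr1b distal, 218.6 kb downstream: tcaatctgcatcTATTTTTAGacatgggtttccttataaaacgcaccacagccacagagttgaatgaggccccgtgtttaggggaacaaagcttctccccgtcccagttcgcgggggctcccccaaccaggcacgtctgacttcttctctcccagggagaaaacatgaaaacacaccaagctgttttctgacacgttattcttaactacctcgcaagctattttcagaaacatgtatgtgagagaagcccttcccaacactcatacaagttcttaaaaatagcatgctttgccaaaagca

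Nog encodes noggin, an antagonist made by cartilage that is needed for joints to form. Its promoter interval stood at percentile 67.4 in limb EGFP+ (688 bp, 58 reads), 39.8 in trunk EGFP+ (27 reads) and 46.7 in trunk EGFP- cells (22 reads), and none was called in limb EGFP- cells. The fractions thus parted in the limb lists, while both trunk lists held promoter peaks of middling rank. Distal intervals numbered 16 in limb EGFP+, 5 in limb EGFP-, 10 in trunk EGFP+ and 3 in trunk EGFP- cells, the largest limb EGFP+ count of the 10 genes. They include 1 trunk EGFP+ interval, at percentile 35.4, that misses the promoter windows but lies in the promoter region over the gene. Of 21 distal regions 14 were EGFP+-only, 3 EGFP--only and 4 shared, and 97.2% of genes had fewer EGFP+-only regions. Acetylation in limb EGFP+ cells continued past the 3' end of this short gene. Regions 2.34 and 3.19 kb downstream of the start site stood at 48.1 and 48.6 there, each with 45 summit reads, and the second also had a trunk EGFP+ peak at 33.1. Next to them, 4.18 kb downstream, chr11:89188745-89189202 was EGFP--only in both tissues, at 47.3 in limb and 8.48 in trunk EGFP- cells. The EGFP+-only region of Nog that stood highest in the trunk EGFP+ list lies 37.8 kb upstream, chr11:89230629-89231383, at 33.6 in limb and 54.8 in trunk EGFP+ cells. A limb EGFP+ peak 70.6 kb upstream stood at 51.4, and 3 of the 4 shared regions lie 79.8 to 119.6 kb upstream, 1 of them in an intron of Ankfn1. The window of the region at 37.8 kb held a SMAD box (chr11:89230968-89231267, plus strand).

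Nog distal, 37.8 kb upstream: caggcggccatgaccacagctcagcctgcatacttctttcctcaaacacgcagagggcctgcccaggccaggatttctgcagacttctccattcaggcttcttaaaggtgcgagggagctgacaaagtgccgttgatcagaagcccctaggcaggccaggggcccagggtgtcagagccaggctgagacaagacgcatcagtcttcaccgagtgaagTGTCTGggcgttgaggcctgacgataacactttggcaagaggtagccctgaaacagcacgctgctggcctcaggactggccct

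Chrd encodes chordin, a binding protein of BMP2, BMP4 and BMP7. Its promoter interval stood at percentile 51.0 in limb EGFP+ (17 reads), 52.6 in limb EGFP- (19 reads) and 41.9 in trunk EGFP- cells (19 reads), with none in trunk EGFP+ cells. This interval also overlaps an exon of Thpo, so it cannot be assigned to Chrd alone. Chrd has 35 start sites. The limb EGFP+ and trunk EGFP- intervals begin more than 500 bp after the 5' end of the gene record. They count as promoter intervals only through other start sites. Distal intervals numbered 5, 2, 3 and 2 in limb EGFP+, limb EGFP-, trunk EGFP+ and trunk EGFP- cells. Of 5 distal regions 3 were EGFP+-only, each in 1 list, and 2 had peaks in every list. One of them, chr16:20520233-20521592 over an exon of Fam131a, stood at 29.5, 15.3, 59.8 and 34.0 in the same order. The other, 73.0 kb downstream, stood at 50.1, 46.5, 29.1 and 59.2. The fractions thus ranked in opposite orders at these 2 regions in the trunk lists.

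Grem1 encodes gremlin, an antagonist that keeps BMP signalling low while the limb bud grows, and its neighbour Fmn1 is known to hold its limb enhancers. It had no promoter interval in any list. Distal intervals numbered 3 in limb EGFP+, 0 in limb EGFP-, 0 in trunk EGFP+ and 2 in trunk EGFP- cells, and every region had a peak in 1 list alone. Those of limb EGFP+ cells stood at 34.5 and 6.89, in an intron of Fmn1 172.6 and 172.0 kb downstream, and at 23.8, 173.9 kb upstream. Those of trunk EGFP- cells stood at 29.6 in an intron of Fmn1, 152.9 kb downstream, and at 6.76. All 5 were thus weak, with 10 to 15 summit reads.

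Further genes of the pathway and of the wider ligand and receptor family, called pathway genes here, gave a frame for these counts. Among 55 further ligands, receptors, extracellular modulators, SMADs and targets, 32 had more EGFP+-only than EGFP--only distal regions, 14 had fewer and 9 had equal numbers, with sums over the genes of 362 EGFP+-only and 210 EGFP--only regions. Neighbouring genes share regions, and counted once each these are 328 and 192. Over the genome 47.8% of genes had more EGFP+-only regions. EGFP+-only regions made up 59.6% of all distal regions seen in a single fraction. Among the groups, targets most often had more EGFP+-only regions, at 8 of 10 genes, against 2 of 6 SMADs and 7 of 15 other ligands. The targets include the neighbours Dlx5 and Dlx6, each with 5 EGFP+-only and 0 EGFP--only regions, and the groups are small. All 10 targets had a promoter interval in limb EGFP+ cells, against 6 in limb EGFP-, 7 in trunk EGFP+ and 5 in trunk EGFP- cells. Over all genes the shares in this order were 55.4, 52.5, 53.7 and 53.7%. The genes with the most EGFP+-only regions were Bmper (20), an extracellular modulator, Sox9 (18), the master regulator of cartilage, and Runx2 (17), that of bone. Those with the most EGFP--only regions were Nbl1, an antagonist, and the receptors Acvr1b and Acvrl1, with 11 each. Acvr1b and Acvrl1 are neighbours whose windows overlap, as are Gdf2 and Gdf10, and Dlx5 and Dlx6. Bmpr1b (18) equalled Sox9, and Nog had 14.

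Likeness was measured as the summed difference between the shares of distal intervals that fall in each of the 4 lists, over 42 pathway genes with at least 10 intervals. Bmpr1b was most like Smoc1 (13, 1, 9 and 2 intervals in limb EGFP+, limb EGFP-, trunk EGFP+ and trunk EGFP- cells, difference 0.0767). Nog was most like Runx2 (16, 5, 8 and 3, difference 0.0882), and Gdf5 was most like Sox9 (17, 4, 13 and 2, difference 0.159). Bmpr1a was most like Acvr1b (difference 0.0517), Bmp2 most like Smoc2 (0.0833), Bmp7 most like Fstl3 (0.111) and Chrd most like Smad6 (0.119). Bmp4 was most like Smad1 (10, 10, 2 and 10, difference 0.175), another gene with few trunk EGFP+ intervals.

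**Figure D4:**
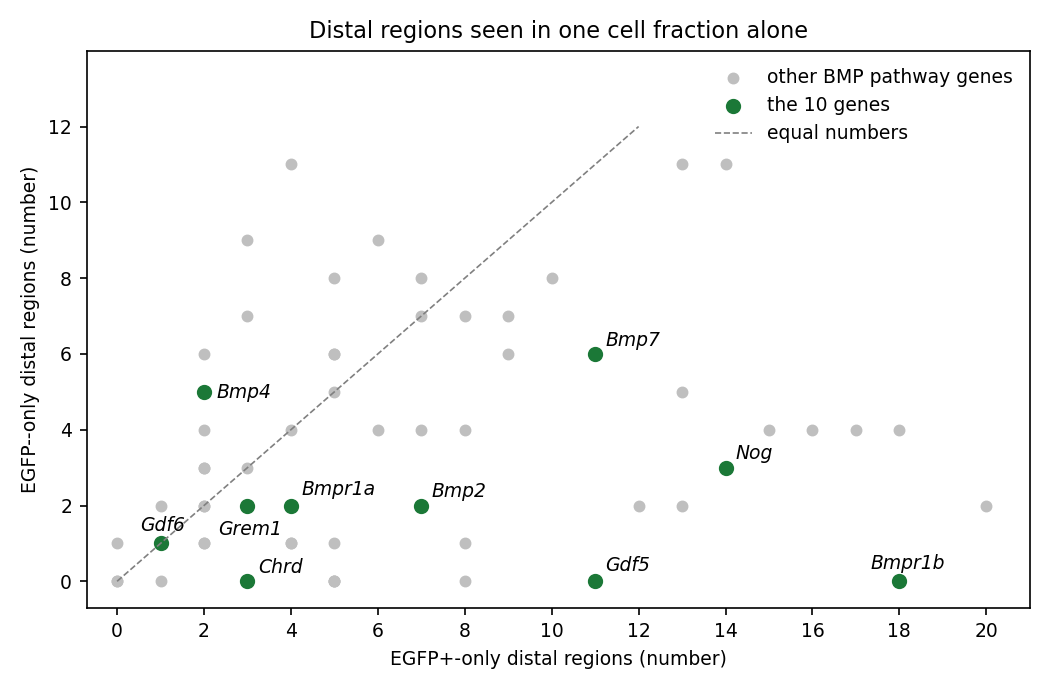
EGFP+-only (horizontal axis) against EGFP--only (vertical axis) distal regions per gene, as numbers, for the 10 genes (green, named) and the 55 other pathway genes (grey), with a dashed line of equal numbers. Bmpr1b (18 and 0), Nog (14 and 3) and Gdf5 (11 and 0) lie far below the line and Bmp4 (2 and 5) lies above it, while the median of all genes is 2 for each kind.

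Sequence words at the distal summits were counted in the 150 bp to either side of each region's highest-percentile summit, on both strands. The sequences shown are centred on limb EGFP+ summits, and at the Gdf5 region 62.3 kb downstream the higher-ranked summit is that of trunk EGFP+ cells, where the counted window held a homeobox core and neither the SOX core nor the SMAD boxes shown. Among the 74 EGFP+-only regions, 4 held ACAATGG and 4 held ACAAAGG (5.41% each), beside 3.59% and 7.2% of the 19476 EGFP+-only distal regions of the genome. The SMAD box with flank was found in 18 (24.3%, genome 29.1%), the GC-rich SMAD1/5 site in 3 (4.05%, genome 1.79%) and the homeobox core in 6 (8.11%, genome 6.18%). The FOX word was found in 1 (1.35%, genome 4.36%) and the MEF2 word in 2 (2.7%, genome 0.734%). Among the 21 EGFP--only regions 10 held the SMAD box (47.6%, genome 30.1%) and none held ACAATGG (genome 4.44%). These are descriptions of few regions, and a match is not shown to be bound.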

How the data were processed

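H3K27ac ChIP-seq peak lists of 4 libraries were used, 1 per population. The authors sampled equal read numbers per library, trimmed them with cutadapt 1.18, mapped them to GRCm39 with Bowtie2 2.3.5.1, filtered them with SAMtools and called peaks per library with MACS2 2.2.7.1, extending reads to 200 bp; tool versions follow the submitters' processing notes. Neither a control library nor a q threshold is given in the sources used here, and read lengths and 2 named sonicators are not assigned to libraries. In the deposited lists the fold is a ratio of the summit pileup to the local background of the same library. The −log10 p-value and −log10 q-value were computed by the authors' MACS2, and the deposited score is derived from the −log10 q.

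Summits with 1 start and end were joined into intervals on chromosomes 1 to 19, X and Y. Start sites were those of all transcripts of protein-coding genes (GENCODE, GRCm39), 168600 in all. Windows, patterns and percentiles are defined in the report, and an overlap of 1 bp sufficed. An interval outside the promoter windows could lie in a region that reached into one, which held for 5 distal intervals of the 10 genes. Summit reads were recovered from fold and −log10 p for 100% of summits within a tolerance of 0.1% of the −log10 p, and exact limits at the 95% level reflect counting error alone. Sequences were read from the GRCm39 genome. The steps were tested on simulated data. The work ran in Python 3.11.15 with scipy 1.17.1, pandas 2.3.3, numpy 2.4.6 and matplotlib 3.10.9.

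The members, gene lists and naming rules were chosen with earlier results of these data known. Named regions per gene were the strongest EGFP+-only region of each tissue, the strongest EGFP--only region and the strongest of any pattern by −log10 p, others being named after their values were seen. Of the other pathway genes the 3 with the most regions of each kind and the most similar gene per member were named, the latter for members with at least 10 distal intervals. Sequences were those of the EGFP+-only region with the highest lower percentile of both EGFP+ lists, plus the Bmp7 promoter; 2 of 14 candidates overlapped an annotated UTR and were passed over, and the Gdf6 region was added after its values were seen. Alternatives were lists of equal length, a −log10 q of at least 5, windows of 100 and 500 kb, assignment to the nearest start site, 50% overlap, merging across 500 bp, other promoter definitions and ranks by fold or width. Start sites of coding transcripts alone were added after seeing the data.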

Additional observations from a re-analysis of the deposited data

Results flagged for a closer look

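With 1 library per population, 4 counts had opposite orders of the fractions in the limb and in the trunk, and none of these differences was tested. Distal intervals of Bmp4 gave a limb EGFP+ minus EGFP- difference of 1 and a trunk difference of -3, but counted by distal regions the limb difference was 0, since 1 limb EGFP+ interval lies in a promoter region. For Grem1 the distal differences were 3 in the limb and -2 in the trunk. Promoter intervals of Nog gave 2 in the limb and -1 in the trunk, but counted by promoter regions the trunk difference was 0, since 1 trunk EGFP+ interval of such a region missed the window. Promoter intervals of Chrd gave 1 in the limb and -2 in the trunk. Those of limb EGFP+ and trunk EGFP- cells count as such only through start sites other than the 5' end of the gene record. The orders of Chrd and Grem1 were the same by regions. Tissue and sequencing lane cannot be told apart in these libraries.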

How the results depend on the processing

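Of 108 alternative values 81 stayed within 1.5 times the reported value (for percentiles, within 10 points) and 27 did not. Distal intervals were judged by their number and not by their share of the list. Some of the shares given below therefore stayed within 1.5 times although the number did not. In each of the 10 alternatives that changed thresholds, windows, merging or promoters, the 10 genes had more EGFP+-only than EGFP--only distal regions, and the former made up 71.4 to 90% of the regions seen in a single fraction (77.9% as reported), beside 48.2 to 67.8% of all such distal regions (59.6% as reported). Values below follow the order limb EGFP+, limb EGFP-, trunk EGFP+ and trunk EGFP- cells. A −log10 q of at least 5 left 27, 7, 17 and 7 distal intervals, or 0.263, 0.107, 0.234 and 0.148% of the distal intervals of each list, with 27 EGFP+-only regions and 3 of the other kind. Lists of equal length left 42 limb EGFP+ intervals (0.322%). Windows of 100 kb gave 13 trunk EGFP- intervals (0.098%) and 11 EGFP--only regions. Windows of 500 kb gave 0.673, 0.426, 0.602 and 0.385%, 138 EGFP+-only regions and 48 EGFP--only regions. Taking regions whose nearest start site is the gene's own gave 0.204, 0.108, 0.177 and 0.0905%, 44 EGFP+-only regions and 13 EGFP--only regions. With the 5' end of the gene record alone, 3 genes had a promoter interval in trunk EGFP- cells. The median percentile of the genes' strongest distal interval by −log10 p was 52.1, 36.7, 57.3 and 47.7. It was 66.5 by width in limb EGFP+, 50.2 by fold in limb EGFP-, 71.6 by fold and 74.8 by width in trunk EGFP+, and 58.1 by fold in trunk EGFP- cells. The cause was not tested beyond what the alternatives change. No paired analysis was possible because the counts come from peak lists called separately in each library and from no test, and leaving out a library leaves the fractions compared in 1 tissue, whose values the report gives.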
